A study of Mus musculus with 49 samples.

Results

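The genes described here encode the proteins of the cytosolic ribosome. They were taken by symbol from a deposited table of 46078 gene identifiers, as every protein-coding row named Rpl or Rps with a number, the stalk genes Rplp0, Rplp1 and Rplp2, and Rpsa. The rule gave 80 genes, of which 46 belong to the large subunit, 31 to the small subunit and 3 to the acidic stalk, and it used no measured value. It left out 2 rows whose symbols fit but which are annotated as pseudogenes, Rps4l and Rpl6l. Of the 80 genes, Rpl3l had no count in any library, Rpl39l had 2 counts and Rpl10l had 16 counts over all 49 libraries, so that 77 genes passed the low-count filter and were tested. These 77 genes were detected in every library.

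The ribosome joins a small subunit, which reads the mRNA, and a large subunit, which forms the peptide bond. Its proteins are made in matched amounts and assembled on ribosomal RNA in the nucleolus, and most of their mRNAs begin with a 5′ terminal oligopyrimidine (TOP) tract that places their translation under the control of mTOR signalling. Ribosome production is known to rise when cells enter growth, as hepatocytes do in culture and in regenerating liver. Proteins of the large subunit that are left unassembled, Rpl5 and Rpl11 among them, can bind Mdm2 and so stabilize p53.

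Transcripts were counted in 49 libraries of 16 conditions from wild-type C57BL/6J mice. Hepatocytes came from livers of 10-week-old adults by collagenase digestion and repeated centrifugation, and were used freshly isolated (FH, n = 3) or after monolayer culture with EGF at 20 ng/mL for 3 h, 1 day, 2 days, 4 days, 1 week (7 days) and 2 weeks (14 days) (n = 3 each). Further monolayers received verteporfin at 0.3 µM or its solvent DMSO for 7 days (n = 2 each). Hepatocytes that lose their mature traits in this culture and expand as progenitor-like cells are called dediHeps (n = 5). They were also grown as aggregates in ultra-low attachment wells (n = 3), as spherical organoids in Matrigel (dediHep-SOs, n = 3) and, after transduction with the intestinal transcription factor Cdx2, as budding organoids (dediHep-BOs, n = 3). The remaining conditions were CLiPs (n = 3), hepatocytes reprogrammed in monolayer with small molecules, spherical organoids of fetal intestinal progenitor cells taken from E13.5 embryos (FIPC-SOs, n = 3), and budding organoids of intestinal stem cells from crypts of 10-week-old adults (ISC-BOs, n = 4). The labels do not say that replicates came from separate animals, and some dediHep, aggregate and dediHep-SO libraries share a culture name. The p-values therefore measure the spread between these libraries, which may in part be technical.

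The depth was 861047 to 3872936 counts per library (median 1976760). In CEL-Seq2 each transcript is tagged near its 3′ end with a unique molecular identifier (UMI), so that a gene's CPM, its count scaled to the total of the library, needs no correction for its length. A count of 3 amounts to 0.775 to 3.48 CPM. The summed level of 8 hepatocyte markers, Alb and Ttr among them, was 12150 to 15308 CPM in FH and 955 to 4775 in dediHeps, and in dediHep-SOs it was 114 to 157 CPM with Alb at 0. The summed level of 8 intestinal markers was 92.8 to 141 CPM in FH, with Vil1, Cdx1, Cdx2, Cdh17 and Krt20 at 0, and was 3315 to 3502 CPM in dediHep-BOs and 3460 to 4320 CPM in ISC-BOs. In dediHep-SOs Fabp2 was at 0. The marker sums use the counts as deposited, without correction for molecules that share a UMI. Fresh hepatocytes also held 124 to 192 CPM of 5 endothelial markers and 27.6 to 94.96 CPM of 5 macrophage markers, against at most 0.528 and 11.9 CPM in dediHeps. The part of these other cells in the differences from FH was not tested, and in bulk samples fewer cells of a type and less RNA per cell cannot be told apart.

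The promoter sequences of the members that the results turn on are shown first, since the TOP tract is read from the transcription start. RefSeq (GRCm38.p6) gave windows of 250 bases before to 50 bases after the annotated start for 60 of the 80 genes, 72 windows in all. Each line below holds the 40 bases before the start and the first 20 bases of the transcript, written 5′ to 3′ on the gene's strand, with runs of 7 or more pyrimidines in capitals. The first 3 genes were higher than in FH at all 6 time points, and the other 4 were lower at 1 or more. Rpl30 and Rps20, which were also lower at a time point, are named only.
Rpl12 (chr2:32961672-32961731, plus strand): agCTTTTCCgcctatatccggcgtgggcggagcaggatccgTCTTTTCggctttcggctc
Rps10 (chr17:27635225-27635284, minus strand): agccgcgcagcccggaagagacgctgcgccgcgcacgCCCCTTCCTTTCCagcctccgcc
Rplp0 (chr5:115559427-115559486, plus strand): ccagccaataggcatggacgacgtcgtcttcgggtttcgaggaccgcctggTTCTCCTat
Rps25 (chr9:44407674-44407733, plus strand): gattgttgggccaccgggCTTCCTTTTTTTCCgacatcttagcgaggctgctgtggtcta
Rpl4 (chr9:64173347-64173406, plus strand): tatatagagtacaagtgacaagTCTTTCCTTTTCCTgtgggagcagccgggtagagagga
Rps27 (chr3:90213629-90213688, minus strand): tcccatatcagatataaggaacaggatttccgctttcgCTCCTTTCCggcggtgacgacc
Rps27l (chr9:66946046-66946105, plus strand): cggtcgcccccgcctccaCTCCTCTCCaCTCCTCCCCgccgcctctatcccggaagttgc

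Pyrimidine runs thus lay in these windows in genes of both groups. A C followed by 4 or more pyrimidines began at the annotated first base in Rps10 and Rps27, and within 5 bases of it in Rpl12 and Rps27l. None began within 5 bases of it in Rplp0, Rps25 or Rpl4. Over all windows of ribosomal protein genes, 62.5% held a run of 7 or more pyrimidines in these 60 bases, against 35.3% of the 32851 windows of all genes. A C at the annotated first base followed by 4 or more pyrimidines was found in 18.1% against 2.51%, and within 5 bases of the first base in 41.7% against 18.3%. In the whole windows of 300 bases, CCGGAAG on either strand, the core of an ETS factor site, was found in 36.1% against 8.86%. TCTCGCGA on either strand was found in 15.3% against 0.995% and the E-box CACGTG in 11.1% against 7.15%, while the TATA sequence TATAAA was found in 8.33% against 13.6%. A match describes these letters only.

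Cytosolic ribosomal protein transcripts took the smallest share of the library in fresh hepatocytes and 3 h after plating, and the largest in organoids. They were 0.930%, 1.08% and 1.21% of counts in the 3 FH libraries and 1.17%, 0.898% and 0.921% at 3 h. At 1 day they were 2.15%, 1.96% and 2.18%, so that the 2 groups did not overlap and the median had risen 1.99-fold over FH. The other monolayers lay in the same region. The median was 2.296% at 2 days, 2.40% at 4 days, 2.03% at 1 week and 2.10% at 2 weeks, and in dediHeps the 5 libraries were 1.56%, 2.16%, 2.17%, 2.11% and 1.82%. Aggregates of dediHeps had 1.64%, 1.64% and 1.83%, above all FH libraries and within the range of the dediHeps. Organoids stood above all monolayers, at 2.82% to 2.87% in dediHep-SOs, 2.70% to 2.96% in dediHep-BOs, 2.70% to 3.13% in ISC-BOs and 2.94% to 3.35% in FIPC-SOs. The highest monolayer library, a 2-week culture with the lowest total of all, was at 2.54%.

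**Figure D1:**
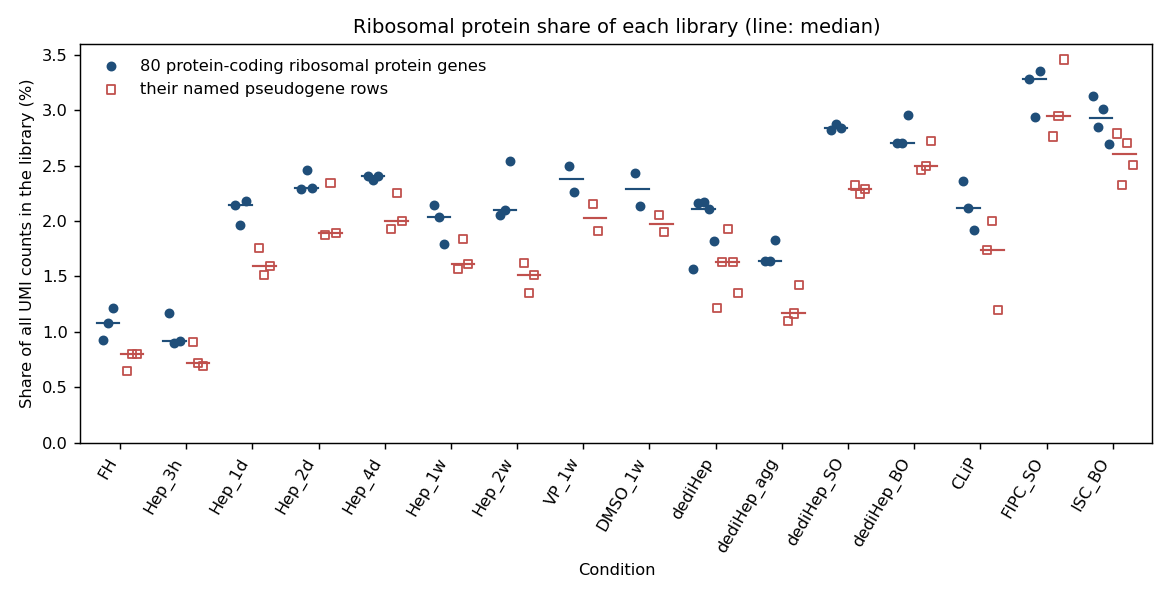
Share of library counts in the 80 cytosolic ribosomal protein genes, in percent (y axis), for each library (filled points) of the 16 conditions (x axis), beside the share of their named pseudogene rows (open squares), with lines at the medians. The FH and 3 h libraries lie between 0.898% and 1.21%, and the organoid libraries lie between 2.70% and 3.35%, above every monolayer library.

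In order of the medians the conditions ran from 3 h, FH and aggregates through 1 week, 2 weeks, dediHeps, CLiPs, 1 day, DMSO, 2 days, verteporfin and 4 days to dediHep-BOs, dediHep-SOs, ISC-BOs and FIPC-SOs. Only 2 steps in this order separated neighbours without overlap, from FH to aggregates and from 4 days to dediHep-BOs. The other neighbours did not differ beyond the spread of their libraries. The ends of this order were seen gene by gene as well. Of the members with counts, 37 had their lowest condition mean in FH and 35 at 3 h, while 64 had their highest mean in an organoid condition, 36 of them in FIPC-SOs and 15 in dediHep-SOs.

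The share rests on the rest of the library as well as on the ribosomal protein genes. Mitochondrially encoded transcripts took a median of 3.29% of counts in FH and 3.07% at 3 h and 1.32% to 2.40% in the other conditions. A 6-base UMI allows at most 4096 counts per gene and library, and genes with 2048 counts or more took a median of 24.2% of counts in FH and 26.2% at 3 h, and 6.98% to 17.6% elsewhere. Without mitochondrially encoded genes the median share was 1.11% in FH and 0.949% at 3 h, beside 1.08% and 0.921% with them. The part of the genes with 2048 counts or more in the share was not tested. With UMI collisions corrected, the median share was 0.851% in FH and 4.08% in FIPC-SOs, a ratio of 4.79, where the counts as deposited gave 3.05. The ratio of dediHeps to FH moved from 1.96 to 2.69 under this correction.

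CPM differed widely within the set, and the members with the highest CPM ran into the UMI limit. Rpl4, a large subunit protein, averaged 1619 CPM over the conditions and Rps20, of the small subunit, averaged 1399 CPM. The count of Rpl4 was 21.7% to 99.2% of the limit with a median of 85.5%, and it passed 90% in 16 libraries. Rps20 was at 13% to 97.2% (median 73.7%) and Rpl23, of the large subunit, at 25.3% to 94.1% (median 65.0%). Corrected counts were up to 4.92 times the deposited count for Rpl4, 3.68 times for Rps20 and 3.01 times for Rpl23. Rpl4 had 1194, 1103 and 1758 CPM in FH and 1234, 1905, 1267, 1448 and 1668 CPM in dediHeps, which overlapped. Rpl10a, next in mean CPM, had 198, 404 and 478 CPM in FH. It kept 47.2% of its family counts beside 2 named pseudogenes, so this order is one of deposited CPM and not of abundance. Together Rpl4, Rps20 and Rpl23 held 13.4% to 32.9% of the counts of the set.

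**Figure D2:**
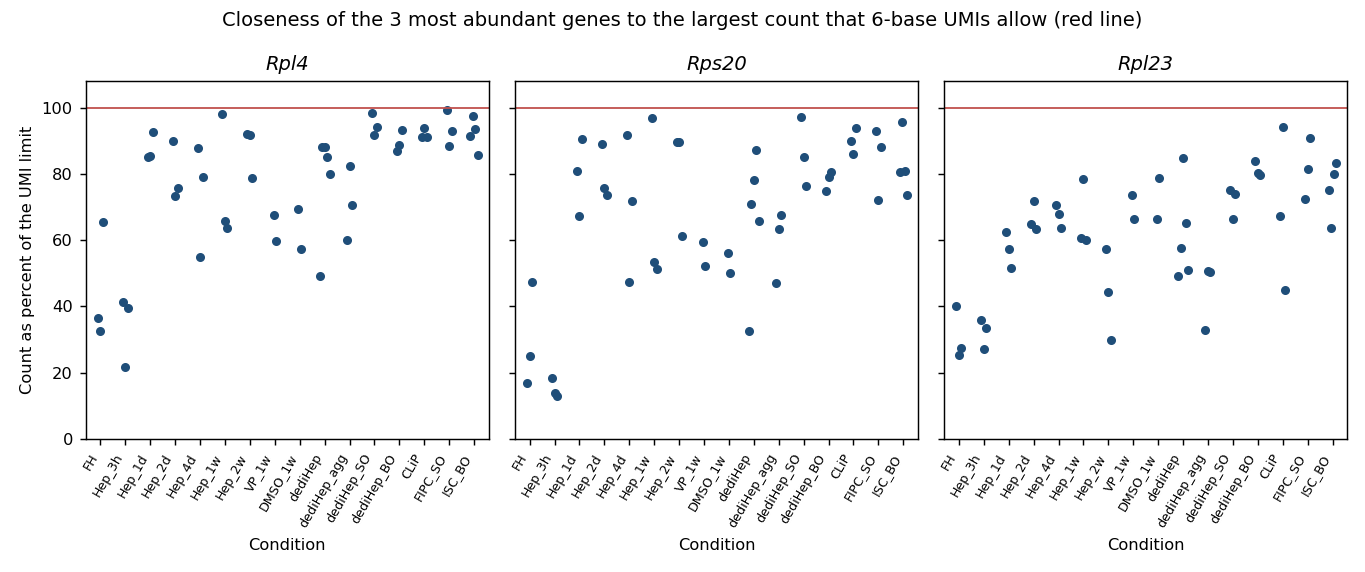
Count of Rpl4, Rps20 and Rpl23 in each library (points) of the 16 conditions (x axis), as percent (y axis) of the 4096 distinct sequences that a 6-base UMI can take. Rpl4 reaches 99.2% and passes 90% in 16 libraries, Rps20 passes it in 7 and Rpl23 in 2.

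Reads of ribosomal protein genes are also shared with processed pseudogenes. Named pseudogene rows, 261 in number and belonging to 57 members, held so many counts that the genes themselves kept 54.5% of the sum. For 32 members the pseudogenes held more counts than the gene. Rps12 kept 3.95% of the counts of its family, which has 21 named pseudogenes, and Rpl31 kept 20.8% beside 21 pseudogenes. Rpl18 kept 14.6%, Rpl30 14.5% and Rpsa 21.1%. Among other genes named below, Rps15a kept 22.0%, Rpl7a 24.2%, Rpl3 27.1%, Rps6 31.0%, Rps10 31.7% and Rps23 33.6%. Levels of these genes are therefore uncertain and are not compared between genes. The pseudogene rows followed the genes across conditions, with a median share of 0.798% in FH, 1.63% in dediHeps and 2.94% in FIPC-SOs.

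The time course asked which of these genes changed as hepatocytes dedifferentiated. Each time point was compared with the same 3 FH libraries in a single edgeR quasi-likelihood fit with TMM normalization, which scales libraries so that most genes do not change, and a gene was called at a Benjamini-Hochberg FDR under 0.1. At 3 h, 8 of the 77 tested genes were higher and 1 was lower, 11.7% of the set, against 18.5% of all genes (7.58% higher and 10.9% lower). The median log2 fold change was 0.04 over the set and -0.07 over all genes. At 1 day, 23 were higher and 1 was lower, and at 2 days 26 were higher and 0 were lower. Of all genes 39.9% were called at 1 day (17.7% higher, 22.2% lower) and 44.3% at 2 days (21.2% higher, 23.1% lower), against 31.2% and 33.8% of the set. The median was 0.54 at 1 day (all genes, -0.03) and 0.65 at 2 days (all genes, 0.04).

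At 4 days 25 members were higher and 0 lower, at 1 week 14 were higher and 3 lower, and at 2 weeks 26 were higher and 3 lower. The background of genes called in either direction was 47.0%, 49% and 55.6%, that of genes called higher was 23.5%, 25.6% and 28.0%, and that of genes called lower was 23.5%, 23.5% and 27.6%. The members' share called was 32.5%, 22.1% and 37.7%, below the background at each of these times. The median log2 fold change of the set was 0.57, 0.38 and 0.48, beside 0.10, 0.17 and 0.04 over all genes. Ribosomal protein genes that were called thus moved mostly upward at each time point. Only Rpl12 at 4 days passed an absolute log2 fold change of 2, a size that 23.8% of all genes passed there.

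**Figure D3:**
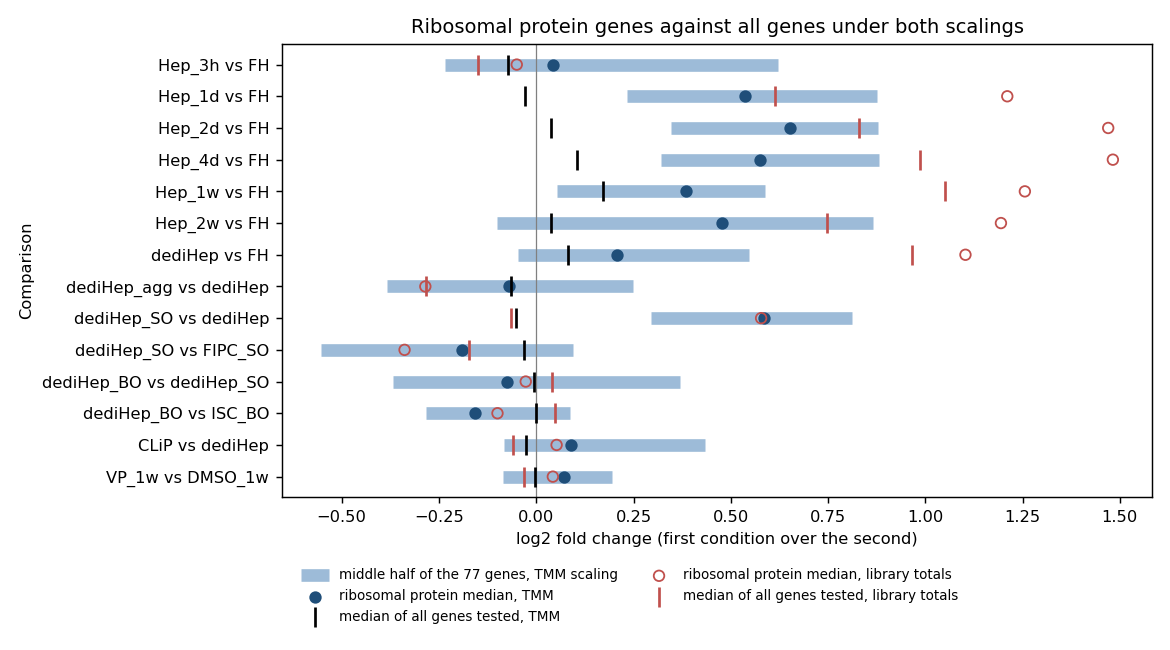
Median log2 fold change of the 77 tested ribosomal protein genes and of all tested genes in each of the 14 comparisons, with TMM scaling (filled points, black ticks) and with library totals (open circles, red ticks). Bars span the quartiles of the 77 genes with TMM. At 1 day the set's median is 0.54 with TMM and 1.21 with library totals, and that of all genes moves from -0.03 to 0.61.

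The size of the rise depended on the scale. Scaled by library totals only, 64 members were higher at 1 day, 70 at 2 days, 73 at 4 days, 67 at 1 week and 57 at 2 weeks, with 1 lower at 2 weeks and 0 lower at the others. On that scale the median of all genes also lay at 0.61, 0.83, 0.99, 1.05 and 0.75, and 37.3%, 45.6%, 50.8%, 54.0% and 45.5% of all genes were called higher. The medians of the set were 1.21, 1.47, 1.48, 1.26 and 1.19. Relative to the median of all genes the set was hence 0.60, 0.64, 0.50, 0.21 and 0.45 higher on this scale, and 0.57, 0.61, 0.47, 0.21 and 0.44 higher with TMM. At 3 h, 6 were higher and 2 lower on library totals, where 6.0% of all genes were called higher.

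Removing single libraries moved several of these counts by more than 1.5 times. Without FH replicate 1, 12 were higher and 8 lower at 3 h, 10 higher at 1 day, 16 higher at 2 days, and 12 higher and 2 lower at 2 weeks. Without FH replicate 2, 5 were higher at 3 h, and without the second 3 h library, 4 were. At 1 day, 15 were higher without the first and 11 without the third 1-day library. Of the 77 genes, 24 were called at no time point, 47 were higher at 1 or more, 6 were lower at 1 or more, and none was both.

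The stalk proteins recruit the GTPases of translation to the large subunit. Of the 3 stalk genes, Rplp0 was called higher at all 6 time points, Rplp2 at 5 and Rplp1 at 0. Rplp0, the base of the stalk, had 36.8, 52.0 and 52.5 CPM in FH and 76.5, 113 and 85.7 CPM at 3 h. It reached 187, 231 and 155 CPM at 1 day and 223, 293 and 240.4 CPM at 4 days. Each cultured library was above each FH library. The log2 fold change of Rplp0 was 1.03 (SE 0.30) at 3 h and 1.64 (SE 0.30) at 2 weeks, with an FDR of 0.031 at 3 h and 1.2e-04 at 2 weeks. The call at 3 h was lost in 1 of 21 fits that each left out 1 library.

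Rplp2, an acidic protein of the stalk, followed from 1 day on. It had 41.6, 74.3 and 93.8 CPM in FH, 92.6, 86.2 and 68.5 CPM at 3 h and 378, 280.1 and 418 CPM at 2 weeks. The 3 h libraries overlapped FH and the 2-week libraries did not, with a log2 fold change of 1.64 (SE 0.38) and an FDR of 0.0013 at 2 weeks. Rplp1, its partner, was not called at any time point. It had 169.6, 315 and 304 CPM in FH and 755, 553 and 735 CPM at 4 days, which did not overlap in CPM, but the TMM-scaled log2 fold change was 0.48 (SE 0.31, FDR 0.23) and that on library totals was 1.38 (FDR 2.3e-04).

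In the large subunit Rpl12, which binds at the base of the stalk, rose most. Its level was 20.8, 24.8 and 19.0 CPM in FH, 80.4, 47.4 and 61.7 CPM at 3 h and 125, 205 and 159 CPM at 4 days. At each time point all 3 libraries were above all FH libraries. The log2 fold change was 1.62 (SE 0.30, FDR 0.0015) at 3 h, 2.01 (SE 0.30, FDR 1.1e-05) at 4 days and 1.36 (SE 0.30) at 2 weeks, and Rpl12 kept its call at every time point in all 21 leave-one-out fits.

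Other large subunit genes rose at some times only. Rpl14 had 28.8, 55.3 and 98.4 CPM in FH and 261, 172 and 309 CPM at 1 day, a log2 fold change of 1.33 (SE 0.37, FDR 0.0076). At 3 h it had 54.3, 44.7 and 34.9 CPM, within the FH range. Rpl39, a small protein that lines the exit tunnel, had 63.2, 29.7 and 38.1 CPM in FH and 147, 318 and 181 CPM at 4 days, a change of 1.41 (SE 0.36, FDR 0.0029).

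In the small subunit Rps10, a protein of the head, was higher at all 6 time points. Its FH values rest on 12, 20 and 22 counts, and it kept 31.7% of its family counts beside 4 named pseudogenes. It had 9.60, 16.5 and 14.4 CPM in FH, 36.0, 43.4 and 32.9 CPM at 3 h and 72.0, 49.99 and 55.7 CPM at 2 weeks. No cultured library overlapped FH. The log2 fold change ran from 1.31 at 1 day to 1.55 (SE 0.33, FDR 6.0e-04) at 1 week, and all 21 leave-one-out fits kept the call at every time. Rpsa, which also serves as a laminin receptor, had 76.0, 75.1 and 59.1 CPM in FH and 149.8, 214 and 217 CPM at 4 days, with a TMM-scaled change of 0.57 (SE 0.36, FDR 0.21). Rps15a, Rpl18 and Rps3 were higher at 5 of the 6 time points, as was Rplp2.

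Rps2 was the largest riser at 3 h and was called at no later time. It had 294, 76.0 and 97.8 CPM in FH and 466.1, 547 and 480.4 CPM at 3 h, a log2 fold change of 1.80 (SE 0.42, FDR 0.0095). FH replicate 1 stood far above the other 2, but below all 3 h libraries. Rps24, a gene of the small subunit that is mutated in Diamond-Blackfan anaemia, had 35.2, 38.8 and 28.9 CPM in FH and 82.7, 87.5 and 78.8 CPM at 3 h (log2 fold change 1.35, SE 0.39, FDR 0.028). At 2 weeks Rps24 had 54.0, 30.1 and 54.6 CPM, which overlapped FH, and it was not called.

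Rps12, most of whose family counts lie in pseudogenes, had 15.998, 32.2 and 6.56 CPM in FH and 37.8, 156 and 59.4 CPM at 2 days (log2 fold change 1.40, SE 0.53, FDR 0.044). Its 2-day value rested on a wide spread, and 3 of 21 leave-one-out fits lost the call.

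**Figure D4:**
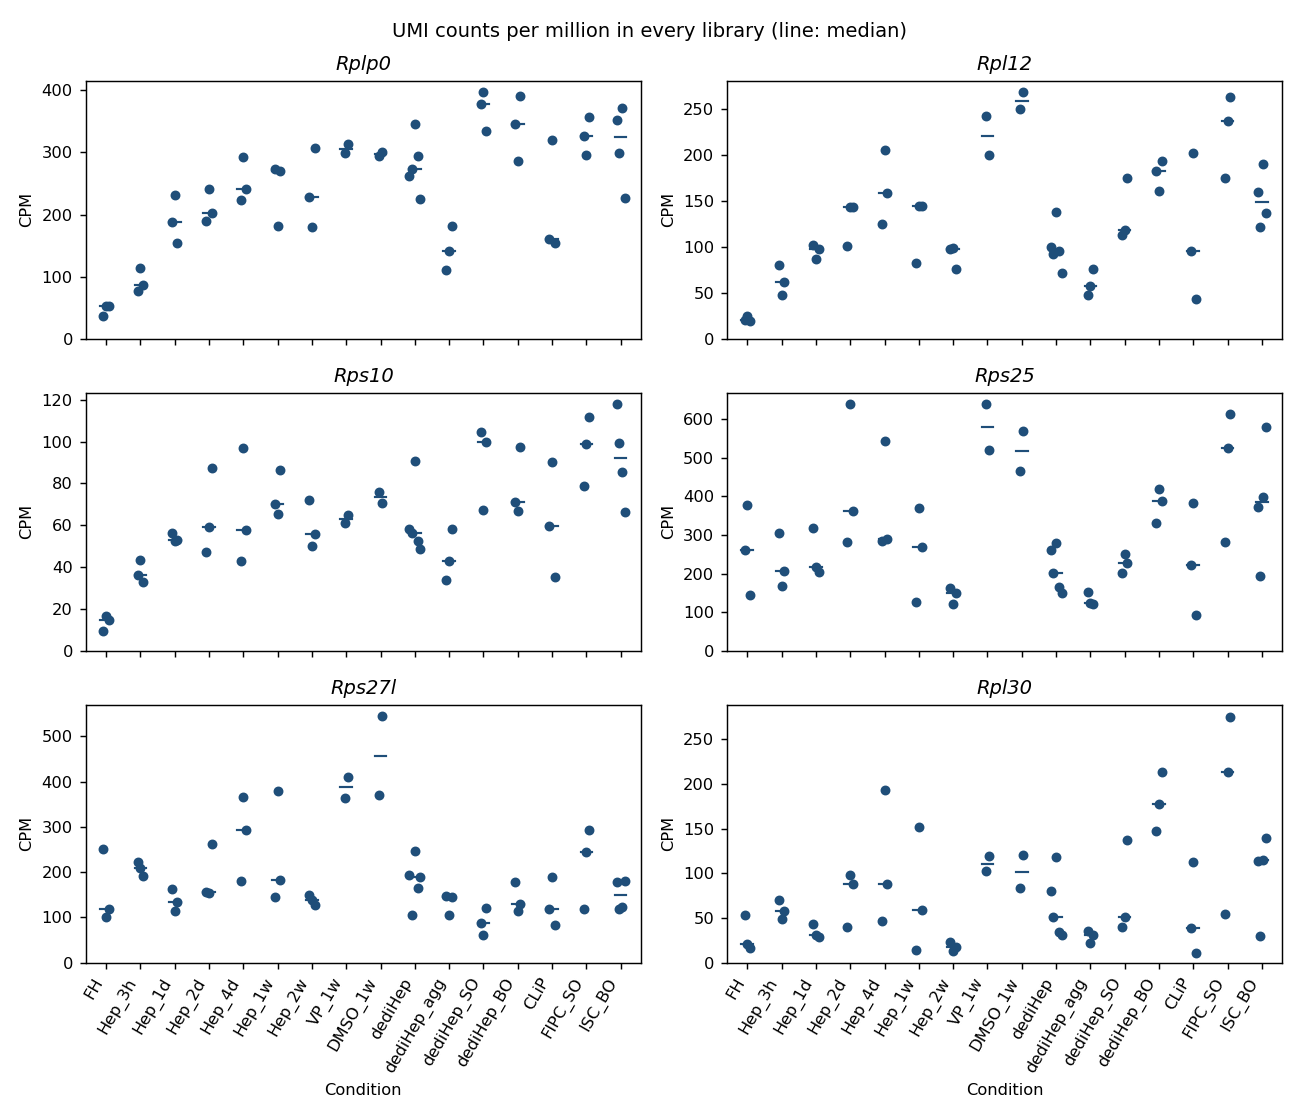
CPM (y axis) of Rplp0, Rpl12, Rps10, Rps25, Rps27l and Rpl30 in each library (points) of the 16 conditions (x axis), with lines at the medians. Rpl12, Rps10 and Rplp0 lie above all FH libraries at each of the 6 time points, while Rps25 at 2 weeks (122 to 162 CPM) overlaps the FH range of 144 to 377 CPM.

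The 6 genes called lower were Rps20, Rps27l, Rps25, Rps27, Rpl4 and Rpl30. Rps25, a small subunit protein used by viral and cellular internal ribosome entry sites, had 260.0, 377 and 144 CPM in FH and 162, 122 and 149 CPM at 2 weeks. The TMM-scaled log2 fold change was -1.57 (SE 0.41, FDR 0.0031), and on library totals it was -0.84 (FDR 0.087). At 1 week it was -0.95 (FDR 0.062) with TMM but -0.03 on library totals.

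Most other falls were of this kind. Rps27l, the p53-inducible paralog of Rps27, had 251, 101 and 119 CPM in FH, 163, 113 and 135 CPM at 1 day and 149.6, 137 and 128 CPM at 2 weeks. These overlapped FH, and the log2 fold changes of -0.84 and -0.86 with TMM became -0.20 and -0.18 on library totals (FDR 0.71 for both). Rps27 at 1 week was -1.17 (FDR 0.027) with TMM and -0.24 (FDR 0.61) on library totals. Rpl30 at 2 weeks had 22.7, 13.1 and 17.4 CPM against 53.6, 20.6 and 16.4 CPM in FH, a change of -1.44 (SE 0.63, FDR 0.063), or -0.74 (FDR 0.34) on library totals.

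Rpl4 at 1 week was -0.88 (FDR 0.052) in the counts as deposited and 0.048 after UMI correction, so its direction turned. Rps20 at 3 h kept its direction on each scale. It had 557, 841 and 1277 CPM in FH and 574, 374 and 365 CPM at 3 h, a log2 fold change of -0.97 (SE 0.36, FDR 0.083) with TMM and -1.03 (FDR 0.036) on library totals. After UMI correction it was -1.14 with an FDR of 0.18. From 1 day on Rps20 was at 848 to 2910 CPM.

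**Figure D5:**
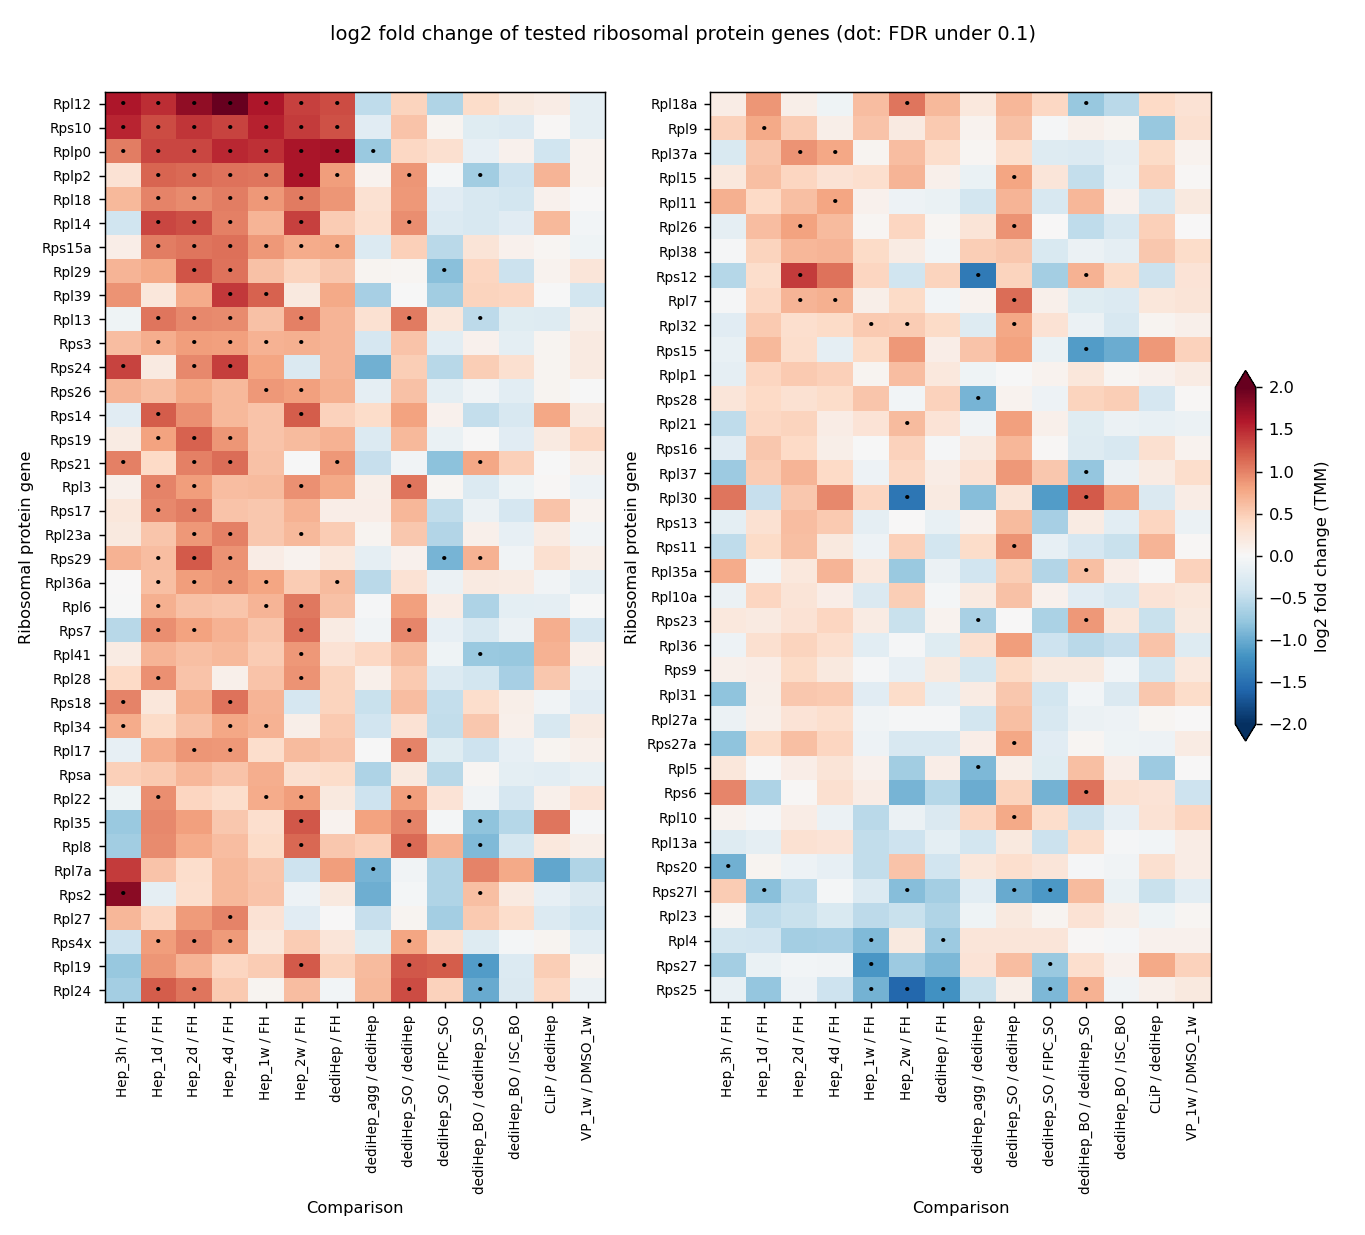
Log2 fold change (colour) of 75 of the 77 tested ribosomal protein genes (rows) in the 14 comparisons (columns), with TMM scaling, where a dot marks an FDR under 0.1. Rpl12, Rps10 and Rplp0 are higher at all 6 time points, and the columns of dediHep-BOs against ISC-BOs, CLiPs against dediHeps and verteporfin against DMSO hold no called gene.

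In established dediHeps 7 genes were higher than in FH and 2 were lower, 11.7% of the set where 45.1% of all genes were called (22.4% higher, 22.7% lower). Those higher were Rplp0, Rpl12, Rps10, Rps21, Rplp2, Rps15a and Rpl36a, all of which were also called higher at 3 or more time points against the same FH libraries. Rplp0 had 263, 273, 345, 295 and 225 CPM in dediHeps, all above FH, and a log2 fold change of 1.67 (SE 0.31, FDR 0.0016). Rpl12 had 99.9, 92.4, 138, 94.9 and 71.9 CPM (log2 fold change 1.31, SE 0.34, FDR 0.011), and Rps10 had 58.2, 56.5, 90.9, 52.4 and 48.5 CPM (1.27, SE 0.38, FDR 0.020). Neither gene's groups overlapped.

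Rps25 and Rpl4 were the 2 lower genes. Rps25 had 261, 202, 279.8, 165 and 150.5 CPM, inside the FH range, with a log2 fold change of -1.20 (SE 0.37, FDR 0.024) under TMM and -0.29 on library totals. Rpl4 was -0.73 (SE 0.30, FDR 0.076) under TMM, -0.11 after UMI correction and 0.16 on library totals. Scaled by library totals, 59 members were higher and 0 lower in dediHeps, where 49.4% of all genes were called higher. The median over the set was 0.21 with TMM (all genes, 0.08) and 1.10 on library totals (all genes, 0.96). Without FH replicate 2, 3 were higher and 0 lower, and without dediHep replicate 3 or 4, 4 were higher and 1 was lower.

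The aggregates ask what happens when dediHeps are returned to a hepatocyte-like state. Their summed hepatocyte marker level was 8508 to 12219 CPM in the counts as deposited. The UMI limit caps the count of each gene, so the highest CPM a gene can reach falls with library depth. The part of this limit in the marker sums was not tested, so they do not measure how close aggregates came to FH. In aggregates 0 ribosomal protein genes were higher and 6 were lower than in dediHeps. This was 7.79% of the set, against 24.4% of all genes (12.2% in each direction). Rps12 had 36.8, 60.2, 61.8, 35.0 and 38.8 CPM in dediHeps and 13.9, 13.2 and 17.5 CPM in aggregates, a log2 fold change of -1.42 (SE 0.35, FDR 0.025). Rpl5, which carries the 5S rRNA and can bind Mdm2, had 762, 860.5, 654, 500.2 and 465 CPM and then 352, 285 and 253 CPM (-0.90, SE 0.29, FDR 0.060). Neither pair of groups overlapped.

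The others that fell were Rps28 (-0.93), Rpl7a (-0.93), Rplp0 (-0.74) and Rps23 (-0.65). Rplp0 went from 225 to 345 CPM in dediHeps to 110.1, 142 and 181 CPM in aggregates, still above the FH range of 36.8 to 52.5 CPM. Rpl12 had 47.0, 56.9 and 75.7 CPM in aggregates and was not called (FDR 0.25). The median over the set was -0.07, as it was over all genes. With the culture name as a block, which rests on the 3 shared cultures and takes nothing from the other 2 dediHep libraries, 1 gene was higher and 2 were lower, and Rps12 kept its call with an FDR of 0.052. Without dediHep replicate 2 or 3 the count lower was 2, and without any 1 of the aggregate libraries it was 1.

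Among the 7 comparisons without FH, the one of dediHep-SOs with dediHeps had the most members called higher. Of the 77 genes 20 were higher and 1 was lower than in dediHeps, 27.3% of the set against 16.1% of all genes (7.93% higher, 8.21% lower). The median was 0.59 over the set and -0.05 over all genes, and 71 genes were above 0. Library totals gave nearly the same, with 19 higher and 1 lower and a median of 0.58. Rpl19, of the large subunit, had 166, 389, 308, 449 and 255 CPM in dediHeps and 839, 778 and 569 CPM in dediHep-SOs (log2 fold change 1.24, SE 0.33, FDR 0.033), and the groups did not overlap.

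Rpl24, which forms a bridge between the subunits, had 27.0, 59.1, 41.4, 78.6 and 84.7 CPM in dediHeps and 169.6, 135 and 121 CPM in dediHep-SOs (1.30, SE 0.38, FDR 0.053). Rpl7, Rpl3 and Rpl13, all of the large subunit, were 1.11, 1.07 and 1.05 higher on the log2 scale. Rplp0, already raised in dediHeps, had 377, 397 and 334 CPM, with a change of 0.42 (FDR 0.29). The gene called lower was Rps27l, with 193, 105, 248, 166 and 188 CPM in dediHeps and 86.7, 61.7 and 120.1 CPM in dediHep-SOs (-1.003, SE 0.33, FDR 0.078).

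These counts depended on single libraries. Without dediHep-SO replicate 1, 1 gene was higher, and without dediHep-SO replicate 2, 5 were. Without dediHep replicate 3 or 5, 13 and 9 were higher. With the culture name as a block, again resting on 3 shared cultures, 2 were higher and 0 lower, with an FDR of 0.087 for Rpl24.

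Against spherical organoids of the fetal intestine, 1 gene was higher in dediHep-SOs and 5 were lower, 7.79% of the set against 23.5% of all genes (13.1% higher, 10.3% lower). Rpl19 had 839, 778 and 569 CPM in dediHep-SOs and 459, 227 and 352 CPM in FIPC-SOs (1.21, SE 0.33, FDR 0.033). The genes called lower were Rps27l (-1.14), Rps29 (-0.93), Rps25 (-0.90), Rpl29 (-0.84) and Rps27 (-0.74). Rps29, a zinc-binding protein of the small subunit, had 133, 108.3 and 125 CPM in dediHep-SOs and 205, 272 and 294 CPM in FIPC-SOs (SE 0.26, FDR 0.036). Rps27l had 119, 244 and 293 CPM in FIPC-SOs, where the lowest library touched the dediHep-SO range. The median over the set was -0.19 (all genes, -0.03). No gene was called without FIPC-SO replicate 2 or without replicate 3. Without FIPC-SO replicate 1, 3 were higher and 11 lower, and without dediHep-SO replicate 3, 4 were higher and 15 lower. Without dediHep-SO replicate 1, 1 was higher and 1 lower, and without replicate 2, 0 were higher and 2 lower. In 1 FIPC-SO library 6 fibroblast markers summed to 605 CPM, against 6.22 and 12.8 CPM in the other 2. Its part in these differences was not tested.

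Budding organoids with Cdx2 differed from spherical ones in both directions. The authors formed spherical organoids with Wnt3a and a Wnt agonist in the medium, and took both out for budding ones. The part of the medium was not tested and cannot be told apart from that of Cdx2. Of the 77 genes 9 were higher and 10 were lower in dediHep-BOs, 24.7% against 40.5% of all genes (19.2% higher, 21.3% lower), and the median was -0.08 (all genes, 0.00). Rpl30 had 39.6, 51.1 and 138 CPM in dediHep-SOs and 148, 178 and 213 CPM in dediHep-BOs (1.22, SE 0.42, FDR 0.053). Rps6, the substrate of S6 kinase, had 55.6, 46.5 and 133 CPM and then 171, 172 and 162 CPM (1.09, SE 0.37, FDR 0.050). Rps23, at the decoding centre, had 274, 414 and 532 CPM and then 904, 700.0 and 672 CPM (0.87, SE 0.27, FDR 0.038). In all 3, dediHep-SO replicate 3 stood closest to the dediHep-BOs.

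The genes that fell were Rps15, Rpl19 and Rpl24 among others. Rps15 had 502, 355 and 249 CPM in dediHep-SOs and 149.7, 135 and 242 CPM in dediHep-BOs (-1.12, SE 0.33, FDR 0.032). Rpl19 went from 839, 778 and 569 CPM to 372, 287 and 383 CPM (-1.12, SE 0.25, FDR 0.0094) and was the only 1 of these 6 that kept its call in all 6 leave-one-out fits. Rpl24 went from 169.6, 135 and 121 CPM to 69.5, 64.2 and 85.6 CPM (-1.01, SE 0.27, FDR 0.023). Without dediHep-SO replicate 3, 20 were higher and 18 lower. Without dediHep-SO replicate 1 or 2, 1 and 2 were higher and 2 and 4 lower. Without dediHep-BO replicate 1, 2 or 3, 2, 3 and 4 were higher and 2, 1 and 8 lower. In the dediHep-BOs, fibroblast markers summed to 2.39, 309 and 333 CPM in order of level, against at most 0.682 CPM in dediHep-SOs. Their part was not tested.

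These same genes also spread in opposite directions between replicates of other conditions. The log2 ratio of the summed CPM of Rpl30, Rps6 and Rps23 to that of Rps15, Rpl19 and Rpl24, 6 genes chosen after their values were seen, was -2.03, -1.31 and -0.22 in the 3 dediHep-SOs and 1.05, 1.11 and 0.56 in the 3 dediHep-BOs. It was 2.09, -0.27 and -1.02 in FH, -1.67, 1.52 and -0.01 at 1 week, and -0.82, 0.56 and -3.67 in CLiPs. The range within CLiPs, 4.23, was thus wider than the distance between any dediHep-SO and any dediHep-BO. In contrast it lay between -1.62 and -1.43 at 2 weeks and between -1.54 and -1.37 in aggregates.

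In the remaining 3 comparisons no ribosomal protein gene was called by edgeR with the low-count filter or by DESeq2. With no such filter edgeR called 3 members between dediHep-BOs and ISC-BOs. Between dediHep-BOs and ISC-BOs 10.2% of all genes were called (5.26% higher, 4.94% lower), and the members reached an unadjusted p under 0.05 in 1 case higher and 3 lower. Without ISC-BO replicate 4, 5 were lower. The median was -0.16 and 24 of 77 were above 0. Between CLiPs and dediHeps 4.69% of all genes were called (2.84% higher, 1.85% lower), 2 members were higher at an unadjusted p under 0.05 and 0 were lower, and without CLiP replicate 2, 1 was higher and 1 lower at the FDR threshold. The CLiP libraries were far apart, with Rpl12 at 95.6, 202 and 42.7 CPM and Rplp0 at 161, 319.7 and 154 CPM. Between verteporfin, an inhibitor of Yap, and DMSO 0.375% of all genes were called (0.317% higher, 0.0577% lower) and 0 members had an unadjusted p under 0.05 in either direction. Rpl12 had 242 and 199.7 CPM with verteporfin and 249.9 and 268 CPM with DMSO, and Rplp0 had 299 and 313 CPM beside 294 and 301 CPM.

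Proteins of the ribosome that the symbol rule leaves out did not move as 1 group. Rack1, a scaffold on the small subunit, was higher than FH at 1 day (1.19, SE 0.25, FDR 8.0e-04) and at 4 days (0.96), and in dediHeps (0.94, FDR 0.046). Rpl22l1, the paralog of Rpl22, was higher in dediHeps (1.31, SE 0.36, FDR 0.014) and lower in aggregates than in dediHeps (-1.27, SE 0.24, FDR 0.0081). Rpl36al was higher at 3 h (0.76, FDR 0.092) but lower at 2 weeks (-1.27, SE 0.30) and in dediHeps (-0.96, FDR 0.033). Rpl36a, its near copy on another chromosome, was higher in dediHeps. Of 6 tested genes of this kind, 2 were higher and 1 was lower in dediHeps than in FH. The background of all genes in that comparison was 22.4% higher and 22.7% lower.

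Ribosome biogenesis factors, which build the particles, were called higher at 3 h, 1 day and 2 days in larger numbers than the members. Of 57 tested factors 10 were higher and 0 lower at 3 h, 34 higher and 1 lower at 1 day, and 37 higher and 1 lower at 2 days, with medians of 0.29, 0.94 and 1.09. The shares called higher were thus 17.5%, 59.6% and 64.9%, beside 7.58%, 17.7% and 21.2% of all genes. Nop56, a core protein of box C/D particles, was 2.38 (SE 0.44) higher at 1 day, Mybbp1a 2.26 (SE 0.34) and the U3 particle protein Rrp9 2.52 (SE 0.56). Rcl1 was the lower gene at -2.16 (SE 0.33). In dediHeps 10 of 56 were higher and 2 lower (median 0.59), and the 17.9% called higher lay below the 22.4% of all genes. In dediHep-SOs against dediHeps 1 was higher and 0 lower (median 0.30), where 7.93% of all genes were higher.

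Among 14 elongation factors and other genes with TOP mRNAs, 5 were higher and 1 lower at each time from 1 day to 2 weeks. That is 35.7% higher and 7.14% lower, where 17.7% to 28.0% of all genes were higher and 22.2% to 27.6% lower. At 1 day Hnrnpa1 was 3.63 higher, Nap1l1 1.80, Eef1g 1.17 and Npm1 1.09, while Eef2, the translocase of elongation, had a log2 fold change of -0.80. In aggregates 0 were higher and 5 lower than in dediHeps (35.7% lower, all genes 12.2%), Npm1 (-1.37) and Hnrnpa1 (-1.37) among them. Of the growth and p53 regulators, Cdkn1a was 6.95 (SE 0.47) higher than FH at 1 day and 5.96 (SE 0.41) in dediHeps, and Mdm2 was 1.80 (SE 0.35) and Trp53 2.69 (SE 0.73) higher in dediHeps. In aggregates the log2 fold change against dediHeps was -1.98 (SE 0.55) for Trp53 and -4.36 (SE 1.53) for Myc. No other regulator of this list was called there, with Cdkn1a at 0.35 (FDR 0.33) and Mdm2 at -0.66 (FDR 0.12). The lists were chosen with earlier results of these data known.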

How the data were processed

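RNA of 49 samples was measured by CEL-Seq2. The authors deposited 1 table of UMI counts per Ensembl gene, not normalized. The submitters' processing notes name bcl2fastq 2.20, Bowtie2 2.3.1, HTSeq 0.6.0 and GRCm38. RNA was extracted with either of a pair of kits, and which kit served which sample is not given in the sources used here. UMIs have 6 bases, so that no count can pass 4096 and the highest count per library was 3835 to 4096. A correction for molecules sharing a UMI, with the deposited count read as the number of distinct UMIs among 4096, was an alternative. Whether counting used strand is not given, and overlapping genes and pseudogenes can share reads.

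Genes were tested with the quasi-likelihood F-test of edgeR 4.0.16 in R 4.3.3, with TMM, filterByExpr (minimum count 10, minimum total 15) and Benjamini-Hochberg adjustment over all genes tested, 10400 to 12443 per comparison. The 6 time points and FH formed 1 fit and the other 8 comparisons a fit each. A gene was called at an FDR under 0.1, at any fold. Each SE was taken as the log2 fold change over the square root of F. Shares and CPM use library totals. Scripts were tested on simulated data shaped like some of the comparisons. For dediHeps against FH, 95 of 11276 genes were given a log2 fold change of 1, and 1.1% of them were recovered. Another 87 were given one of 2, and 47.1% of them were recovered. The recovered shares were 2% and 37.5% for dediHep-SOs against dediHeps, and 30.9% and 91.5% for verteporfin against DMSO. Of the calls, 12.5%, 7.3% and 16.7% were false in this order, at an FDR under 0.1. In the deposited counts 45.1%, 16.1% and 0.375% of all genes were called in these comparisons. Recovery where as many genes change as in dediHeps against FH, or at the level of the members, was not tested.

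Named genes were the 3 called with the largest rise and the 3 with the largest fall per comparison, the 5 with the highest mean CPM, those close to the UMI limit, paralog pairs, the stalk genes and Rpsa. Rpl5, Rpl7, Rpl3, Rpl13, Rps15a, Rpl18, Rps3, Rps21, Rps24 and Rpl29 were named after their values were seen. The values of 2 member genes are not reported here by name. The members and lists were chosen with earlier results of these data known.

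Alternatives were RLE factors, library totals, no low-count filter, UMI-corrected counts, DESeq2 1.42.0, a replicate block and leaving out each library. Pairs of replicates were compared by chi-square over genes, and all 54 differed by more than sampling noise (5.62 to 68.0 per degree of freedom). Aggregates and dediHeps share culture names in the labels, and their deviations from the group means correlated by 0.183, 0.248 and 0.359. dediHep-SOs and dediHeps also share culture names, with correlations of -0.511, 0.048 and 0.013. Promoters were read from RefSeq windows of GRCm38.p6.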

Additional observations from a re-analysis of the deposited data

Results flagged for a closer look

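Values of the named genes were checked in the groups of 4 and 5 libraries, 72 sets of values in all. In 3 of them 1 library lay further from the rest than Dixon's 95% limit allows, while chance alone flags about 1 in 20. Rps10 had 90.9 CPM in dediHep replicate 3 against 48.5 to 58.2 CPM in the other 4 dediHep libraries. Rps28 had 260.5 CPM in the same library against 123 to 145.8 CPM in the others. Rpl24 had 114.7 CPM in ISC-BO replicate 2 against 72.3 to 78.5 CPM in the other 3.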

How the results depend on the processing

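A count is said to have moved when it changed by over 1.5 times, and a median log2 fold change when it changed by more than 0.129, the SD of the members' log2 share within conditions. By this measure none of the 28 counts and medians of the 14 comparisons moved under DESeq2 or RLE factors, although DESeq2 called 12 members in place of 9 at 3 h, 35 in place of 29 at 2 weeks, 13 in place of 9 in dediHeps and 9 in place of 6 in aggregates. Library totals moved 16 of them. The number of members called became 64 at 1 day, 70 at 2 days, 73 at 4 days, 67 at 1 week, 58 at 2 weeks and 59 in dediHeps, each against FH, 11 in aggregates against dediHeps and 10 in dediHep-SOs against FIPC-SOs. The medians became 1.21, 1.47, 1.48, 1.26, 1.19 and 1.10 in the comparisons with FH, -0.29 in aggregates and -0.34 in dediHep-SOs against FIPC-SOs, and those of all genes moved by a like amount against FH. UMI-corrected counts gave medians of 0.69 at 1 day, 0.79 at 2 days, 0.64 at 2 weeks and 0.36 in dediHeps. Shares of the library are listed without the measure above. With UMI-corrected counts the median share was 0.648% at 3 h, 0.851% in FH, 2.22% at 1 week, 2.51% at 2 weeks, 2.29% in dediHeps and 2.38% in CLiPs. It was 2.50% at 2 days, 2.58% at 4 days, 3.10% in dediHep-BOs, 3.35% in dediHep-SOs, 3.51% in ISC-BOs and 4.08% in FIPC-SOs, as the correction raises genes near the limit most. Without mitochondrially encoded genes the share was 2.44% at 4 days and 2.885% in dediHep-SOs. With no low-count filter the median at 1 week was 0.52, and 3 members were called in aggregates and 3 in dediHep-BOs against ISC-BOs, where more genes entered the adjustment. Rpl4 reversed to 0.048 at 1 week with UMI-corrected counts and to 0.16 in dediHeps with library totals.

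With the culture name or the replicate number as a replicate block, 3 members were called in aggregates, 2 in dediHep-SOs against dediHeps, 13 in dediHep-SOs against FIPC-SOs and 11 in dediHep-BOs against dediHep-SOs, and the other 24 counts and medians did not move by this measure, the count in dediHeps against FH being 12 in place of 9. Outside the comparisons with shared culture names the samples share a replicate number only, and same-numbered samples did not deviate together in every pair of any comparison with 3 pairs. The deposited column names at 3 h carry a different run of numbers from those of FH, and pairing by these names was not tested. Of 48 calls of named genes, a replicate block lost 6, library totals 7, no filter 6, UMI-corrected counts 4, RLE factors 1 and DESeq2 0, and 25 were lost in at least 1 fit without a library.

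Leaving out 1 library at a time, the number called ran from 4 to 20 at 3 h, 10 to 32 at 1 day, 16 to 33 at 2 days, 17 to 28 at 4 days, 13 to 21 at 1 week, 14 to 36 at 2 weeks and 3 to 13 in dediHeps. It ran from 1 to 8 in aggregates, 1 to 20 in dediHep-SOs against dediHeps, 0 to 19 against FIPC-SOs, 3 to 38 in dediHep-BOs against dediHep-SOs, 0 to 5 against ISC-BOs and 0 to 2 in CLiPs. The medians ran from -0.15 to 0.17 at 3 h, 0.39 to 0.66 at 1 day, 0.51 to 0.81 at 2 days, 0.43 to 0.73 at 4 days, 0.15 to 0.56 at 1 week, 0.32 to 0.61 at 2 weeks, 0.038 to 0.23 in CLiPs and -0.035 to 0.21 with verteporfin, where the remaining lone library was assumed to vary like the other group. The cause of these changes was not tested. The UMI limit and pseudogenes bound what single members can show.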

Other observations

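With TMM scaling, mitochondrial ribosomal proteins, which are encoded in the nucleus and serve translation inside mitochondria, did not follow the cytosolic ones. As a share of the library they took 0.329% to 0.460% in FH and 0.532% to 0.679% at 1 day. At 4 days they took 0.477% to 0.639%, and at 1 week 0.400% to 0.549%. The 1-day and 4-day libraries lay above FH, and the 1-week range overlapped it. Against FH, 9 of 77 tested genes were higher and 8 lower at 1 day, 2 were higher and 21 lower at 4 days, and 0 were higher and 26 lower at 1 week, with medians of -0.0031, -0.37 and -0.55 where the cytosolic set had 0.54, 0.57 and 0.38. The shares called lower, 10.4%, 27.3% and 33.8%, stood beside 22.2%, 23.5% and 23.5% of all genes, and those called higher, 11.7%, 2.60% and 0%, beside 17.7%, 23.5% and 25.6%. In dediHeps 0 of 75 were higher and 22 lower than in FH (29.3% lower, all genes 22.7%, and 22.4% of all genes higher). In aggregates 16 of 74 were higher and 0 lower than in dediHeps (21.6% higher, all genes 12.2% in each direction), with a median of 0.66 beside -0.07 for the cytosolic genes. In dediHep-SOs against dediHeps 1 was higher and 0 lower. These comparisons share the FH or the dediHep libraries.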
